A study of Mus musculus with 12 samples.

Results

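The MHC class II genes and the ubiquitin ligase MARCH1 were followed across the lungs of newborn mice given bacterial lipopolysaccharide (LPS) or phosphate-buffered saline (PBS). The set held 8 genes of the 52550 in the count table: H2-Aa, H2-Ab1, H2-Eb1, H2-DMa, H2-DMb1, Cd74, Ciita and MARCH1. Of these, 7 were found by symbol, and MARCH1 was found by its identifier, ENSMUSG00000036469, because its symbol had turned into a date ("1-Mar") that a second, unrelated gene also carried. All 8 of 8 passed the filter on low counts, as did 15885 of the 21950 protein-coding genes. The 8 genes were chosen by their role in class II presentation with their measured fold changes after LPS known, so their LPS responses are given as a description, with no test and no call, and for them only the comparisons between genotypes are tested.

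Bulk RNA sequencing measured 12 whole lungs of C57Bl/6J mice at postnatal day 5, in 4 groups of 3 mice. WT mice (Adm+/+) were compared with Adm+/- mice, in which 1 allele of adrenomedullin is inactive. Each mouse had an intraperitoneal injection on each of 3 days, either of PBS or of LPS from Escherichia coli O55:B5 at 6 mg/kg, and 6 h after the final injection the lungs were collected. Per the study's methods, the Adm+/- line was made on a 129/SvEv background and backcrossed for 12 generations to C57BL/6J. Libraries carry the labels' own numbers: WT PBS 3, 4 and 5, WT LPS 9, 10 and 11, Adm+/- PBS 6, 7 and 8, and Adm+/- LPS 1, 2 and 12. Levels are CPM, counts scaled to a common total over the tested protein-coding genes, and a gene counts as called where its adjusted p was below 0.05 and its log2 fold change exceeded 0.5 in size (edgeR's quasi-likelihood test with Benjamini-Hochberg adjustment over all 15885 genes).

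MHC class II molecules carry peptides from ingested proteins to the cell surface, where CD4 T cells read them. An alpha and a beta chain pair in the endoplasmic reticulum on the invariant chain, Cd74, which fills the groove until proteases cut it down to a short peptide that H2-DM then swaps for antigen. Their transcription runs through Ciita, a coactivator without DNA binding of its own, and MARCH1 sits in the membrane and ubiquitinates the tail of the beta chain, which sends the molecule to lysosomes. In lung, dendritic cells, B cells and macrophages are the main carriers, and type II pneumocytes carry them too.

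Depth was 22382535 to 38062873 counts per library (median 28494877). WT PBS 5 and Adm+/- PBS 6 stood apart: protein-coding genes took 77.76% and 80.13% of their counts against 84.26% to 87.62% in the other 10 libraries, and the non-coding gene Gm26917 took 16.58% and 13.31% against 5.42% to 7.40%. The log2 fold changes of the 8 genes are also given without both of them. Adm itself averaged 5.21 CPM ± 1.66 (SD, n = 3) in WT PBS and 3.69 ± 0.855 in Adm+/- PBS, and 6.79 ± 2.03 in WT LPS and 4.65 ± 1.42 in Adm+/- LPS. The Adm libraries of both genotypes overlapped under either treatment and the gene was not called (adjusted p = 0.999 in PBS and 0.480 in LPS, edgeR).

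By the mm10 annotation, 5 of the 8 genes lie together on chromosome 17. H2-Ab1 (chr17:34257689-34269419, plus strand) and H2-Aa (chr17:34282744-34287823, minus strand) encode the beta and alpha chain of the same molecule, I-A. H2-Eb1 (chr17:34305867-34316674, plus) encodes the beta chain of I-E. Its partner H2-Ea is a pseudogene in C57BL/6 mice, and the row H2-Ea-ps held 0 counts in 11 libraries and 2 in the other. H2-DMb1 (chr17:34153072-34160230, plus) and H2-DMa (chr17:34119541-34139101, plus) encode the chains of the peptide exchange factor. H2-DMb1 has a near-identical copy beside it, H2-DMb2, and the reads of both may be split between them. Cd74 (chr18:60803848-60812652, plus), Ciita (chr16:10480059-10528418, plus) and MARCH1 (chr8:65617900-66471637, plus, spanning 853738 bp) lie elsewhere. H2-DMa overlaps Brd2 on the other strand (mean 309 CPM) and Ciita overlaps Dexi (24.1 CPM). The kit keeps strand, but the strand setting of the counting is not given in the sources used here, so reads of such partners may be mixed.

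Per kilobase of exon, Cd74 stood far above the rest at 128 CPM per kb, the mean of 12 libraries (range 70.9 to 191). H2-Eb1 followed at 21.8 (11.1 to 45.4), H2-Ab1 at 14.5 (8.53 to 24.8) and H2-Aa at 10.3 (5.37 to 15.7). Then came H2-DMb1 at 4.57 (2.38 to 6.99), H2-DMa at 2.98 (1.89 to 4.66), MARCH1 at 2.56 (0.536 to 5.68) and Ciita at 1.71 (1.01 to 3.28). The order from Cd74 down to H2-DMa held within 12 of 12 libraries, although the ranges of neighbours overlapped across libraries from H2-Eb1 to Ciita. The end of the order turned with treatment. H2-DMa stood above MARCH1 in all 6 PBS libraries and below it in all 6 LPS libraries, and MARCH1 stood below Ciita in all 6 PBS libraries and above it in all 6 LPS libraries.

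The promoters of class II genes are known for a shared module in which an X box, bound by the RFX complex, and a Y box, bound by NF-Y, lie side by side and hold Ciita. The stretches below show that pairing in H2-Eb1, H2-DMb2 and H2-Ob, and the Y letters alone in H2-Aa. The reference table (RefSeq, GRCm38.p6, 250 bases before to 50 after each start) held 5 of the 8 genes, and H2-Ab1, Cd74 and Ciita were not in it. It was searched on both strands for ATGATG, letters of an X box, and TGATTGG, letters of a Y box, both picked after class II promoters had been looked at. The first stood in 3668 of 32851 windows (11.2%) and the second in 2568 (7.82%). The motifs share the letters TGAT, and no match shown overlaps another. The first followed by the second on the gene's strand, within 40 bases, stood in 12 windows (0.0365%). Among them were H2-Eb1 with 17 bases between the motifs, H2-DMb1 and H2-DMb2 with 18 each, and H2-Ob with 15. H2-Aa held the Y letters alone, as did H2-Oa and H2-Eb2, and 1 of the 3 windows of MARCH1 held the X letters alone. Neither motif was found in the 2 windows of H2-DMa. Only these exact letters were searched, so a box spelled otherwise, in H2-Aa or elsewhere, would be missed. The sequences run 5′ to 3′ on the gene's strand (mm10: H2-Eb1 chr17:34305756-34305820, plus; H2-DMb2 chr17:34145107-34145171, plus; H2-Ob chr17:34238796-34238860, plus; H2-Aa chr17:34287859-34287923, minus), with the X letters first and the Y letters second in capitals, or the Y letters alone in H2-Aa.
H2-Eb1: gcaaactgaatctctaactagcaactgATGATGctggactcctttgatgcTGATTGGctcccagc
H2-DMb2: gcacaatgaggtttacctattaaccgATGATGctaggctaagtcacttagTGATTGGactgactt
H2-Ob: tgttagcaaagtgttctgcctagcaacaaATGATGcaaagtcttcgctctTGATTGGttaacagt
H2-Aa: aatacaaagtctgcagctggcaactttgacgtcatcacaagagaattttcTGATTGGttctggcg

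The classical chains were lower after LPS in both genotypes. H2-Aa measured 45.3, 49.99 and 43.9 CPM in the WT PBS lungs and 20.4, 31.9 and 34.3 CPM in the WT LPS lungs, a log2 fold change of -0.69 (SE 0.23). The Adm+/- lungs measured 44.0, 59.6 and 57.5 CPM in PBS and 21.2, 37.96 and 23.9 CPM in LPS, a log2 fold change of -0.96 (SE 0.24). No LPS lung reached a PBS lung of its genotype, and Adm+/- LPS 2 was the highest of the 6 LPS lungs. H2-Ab1 went from 32.2, 42.3 and 63.6 CPM to 22.1, 26.8 and 31.1 CPM in WT (log2 fold change -0.78, SE 0.23) and from 54.7, 53.7 and 45.2 CPM to 21.9, 29.3 and 22.8 CPM in Adm+/- (-1.05, SE 0.23). H2-Eb1 went from 35.3, 54.3 and 88.3 CPM to 21.7, 29.8 and 30.8 CPM in WT (-1.11, SE 0.29) and from 59.3, 53.6 and 47.5 CPM to 25.4, 37.7 and 24.1 CPM in Adm+/- (-0.88, SE 0.29). For both beta chains the groups did not overlap, and the highest PBS value of either gene was that of WT PBS 5, a library that stood apart. Without it and Adm+/- PBS 6, the WT log2 fold change was -0.48 for H2-Ab1 and -0.71 for H2-Eb1, and it was -0.73 for H2-Aa, and the Adm+/- values were -1.0035, -0.80 and -1.08 for the same genes. In whole lung, fewer cells of a type and less RNA per cell cannot be told apart.

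**Figure D1:**
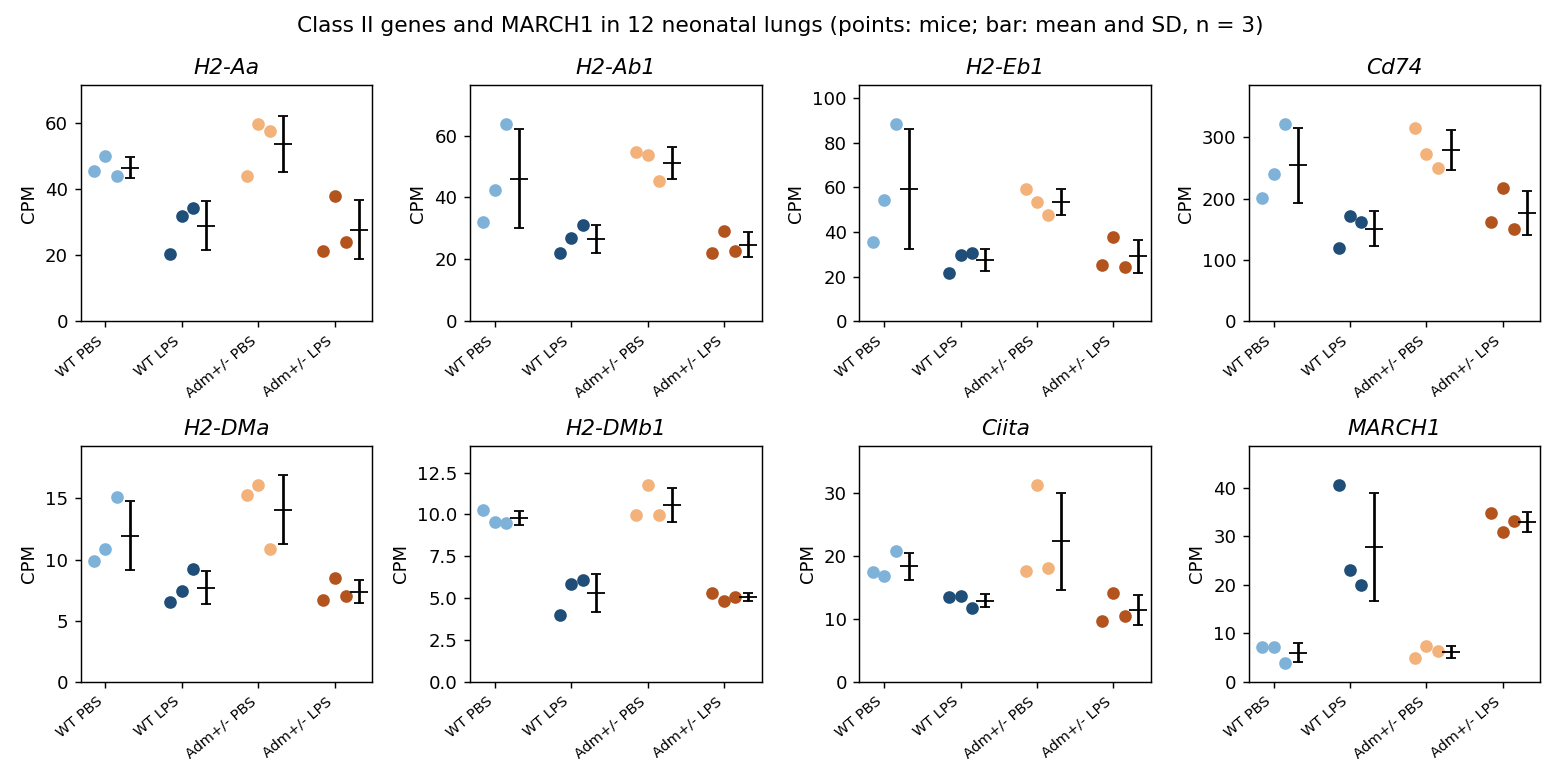
Level in CPM (y axis, from 0) of each of the 8 genes in the 4 groups, 1 point per mouse, with the mean and SD of 3 mice as a bar. In each of the 7 class II panels all LPS points lie below all PBS points of their genotype, and in the MARCH1 panel all LPS points, 19.9 to 40.6 CPM, lie above all PBS points, 3.83 to 7.40 CPM.

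The chaperones of peptide loading were lower after LPS as well. Cd74 measured 202, 240 and 322 CPM in WT PBS and 119, 172 and 162 CPM in WT LPS, a log2 fold change of -0.75 (SE 0.20). The Adm+/- lungs held 315, 273 and 250 CPM in PBS and 161, 217 and 151 CPM in LPS, a log2 fold change of -0.66 (SE 0.20). The groups did not overlap, and Adm+/- LPS 2 was the highest of the 3 Adm+/- LPS lungs for Cd74 as for the classical chains. Without it the Adm+/- log2 fold change of Cd74 was -0.84, and without WT PBS 5 the WT value was -0.55. H2-DMa went from 9.90, 10.8 and 15.1 CPM to 6.50, 7.40 and 9.20 CPM in WT (-0.63, SE 0.21) and from 15.3, 16.1 and 10.9 CPM to 6.66, 8.46 and 7.02 CPM in Adm+/- (-0.93, SE 0.21). H2-DMb1 showed no overlap either: its PBS lungs lay between 9.51 and 11.8 CPM and its LPS lungs between 4.01 and 6.09 CPM, in both genotypes. Its log2 fold change was -0.88 (SE 0.17) in WT and -1.06 (SE 0.17) in Adm+/-. Without the 2 PBS libraries that stood apart, the WT log2 fold change was -0.55 for Cd74, -0.43 for H2-DMa and -0.90 for H2-DMb1, and the Adm+/- values were -0.57, -0.87 and -1.0954. Brd2, which overlaps H2-DMa, had log2 fold changes of -0.20 in WT and 0.01 in Adm+/-.

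Ciita, the coactivator, had the smallest WT fold change of the 7 class II genes. It measured 17.4, 16.8 and 20.9 CPM in WT PBS and 13.5, 13.6 and 11.7 CPM in WT LPS (log2 fold change -0.51, SE 0.23). In Adm+/- it measured 17.6, 31.3 and 18.1 CPM in PBS and 9.65, 14.2 and 10.5 CPM in LPS (-0.97, SE 0.23). Neither pair of groups overlapped, and Adm+/- PBS 7 lay far above the other PBS lungs. Without Adm+/- PBS 7 the Adm+/- log2 fold change was -0.64. Without the 2 libraries that stood apart, it was -0.41 in WT and -1.12 in Adm+/-. Dexi, on the other strand, changed by -0.63 and -0.88 on the log2 scale, and its share in the Ciita counts was not tested.

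MARCH1 went the other way and by more. It measured 7.18, 7.13 and 3.83 CPM in WT PBS and 40.6, 23.1 and 19.9 CPM in WT LPS, a log2 fold change of 2.19 (SE 0.30), or 4.57-fold. Adm+/- lungs gave 4.95, 7.40 and 6.36 CPM in PBS and 34.9, 30.9 and 33.2 CPM in LPS, a log2 fold change of 2.40 (SE 0.30), or 5.27-fold. No group overlapped across treatments. The 3 Adm+/- LPS lungs were close to each other, while the WT LPS lungs spread widely and WT LPS 9 held the highest MARCH1 of all 12 lungs together with the lowest H2-Aa, H2-Eb1, H2-DMa, H2-DMb1 and Cd74. WT PBS 5 held the lowest MARCH1 of all. Without the 2 libraries that stood apart, MARCH1 changed by 1.96 in WT and 2.26 in Adm+/- on the log2 scale.

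All 7 class II genes lay lower without overlap in WT (17.9% of tested genes did) and in Adm+/- (27.1%), and MARCH1 lay higher without overlap in both (18.3% and 26.6%). The median log2 fold change of the 8 genes, MARCH1 included, was -0.72 in WT and -0.94 in Adm+/-, and over all tested genes 0.01 and -0.01. Because these contrasts chose the genes, nothing is read from these counts and medians. The size of the WT changes moved most with WT PBS 5 and WT LPS 9. Without WT PBS 5 the WT log2 fold change was -0.48 for H2-Ab1, -0.71 for H2-Eb1, -0.43 for H2-DMa, -0.55 for Cd74 and -0.41 for Ciita, and without WT LPS 9 it was -0.49 for H2-Aa, -0.71 for H2-DMb1 and 1.81 for MARCH1.

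**Figure D2:**
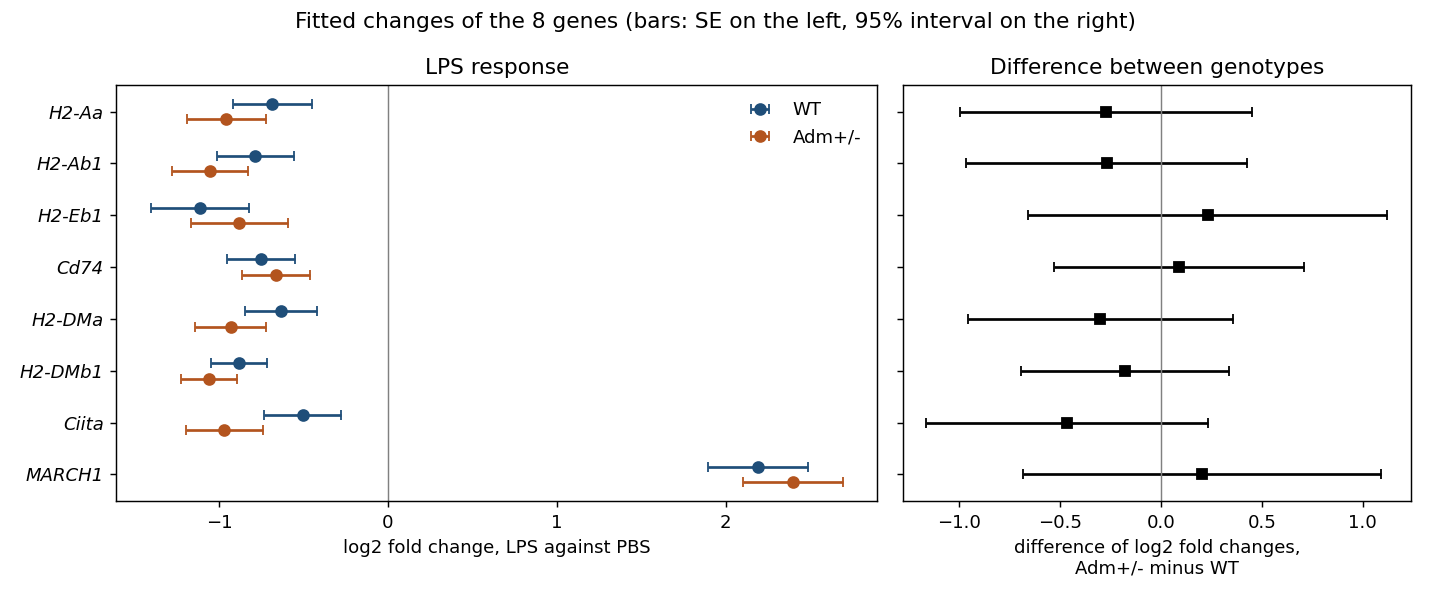
Log2 fold change (x axis) of the 8 genes for LPS against PBS in WT and in Adm+/- (left) with the SE of the edgeR fit as bars, and the difference between the genotypes (right) with its 95% interval. The 7 class II genes lie left of 0 and MARCH1 right of it in both genotypes, while the 8 intervals of the difference all hold 0.

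The study asked whether losing a copy of Adm changes the response to LPS. For these genes no difference in response was called: 0 of 8 genes passed, where 0.145% of all tested genes did, the smallest adjusted p of the 8 was 0.857 (Ciita, edgeR), and 0 of 8 had an unadjusted p below 0.05, where 7.85% of tested genes did. limma-voom and DESeq2 also called 0 of 8. The differences (Adm+/- minus WT, log2) were -0.46 for Ciita (95% interval -1.16 to 0.24), -0.30 for H2-DMa (-0.96 to 0.36), -0.27 for H2-Aa (-0.99 to 0.45) and -0.27 for H2-Ab1 (-0.96 to 0.43). They were -0.18 for H2-DMb1 (-0.69 to 0.34), 0.09 for Cd74 (-0.53 to 0.71), 0.20 for MARCH1 (-0.68 to 1.09) and 0.23 for H2-Eb1 (-0.66 to 1.12). Each interval reached past 0.5 in size on at least 1 side, so differences of that size lie within the error of these values. Without WT LPS 9 the difference of MARCH1 was 0.59, and without WT LPS 11 it was 0.0166. Without WT PBS 5 the differences of H2-Eb1 and Cd74 turned to -0.16 and -0.11. Without both libraries that stood apart, the differences were -0.71 for Ciita, -0.52 for H2-Ab1, -0.44 for H2-DMa, -0.35 for H2-Aa, -0.19 for H2-DMb1 and 0.30 for MARCH1, and those of H2-Eb1 and Cd74 were below 0 too (-0.0885 and -0.0157).

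Within LPS, no gene of the set differed between genotypes by the call rule (0 of 8, where 2.05% of tested genes did). The log2 difference of Adm+/- against WT ran from -0.18 for Ciita (95% interval -0.68 to 0.32) to 0.24 for MARCH1 (-0.36 to 0.85), and the smallest adjusted p was 0.740 (Cd74, edgeR). That of MARCH1 was 0.62 without WT LPS 9, the highest of the WT LPS lungs, and 0.0513 without WT LPS 11, the lowest. The 3 Adm+/- LPS lungs overlapped with the 3 WT LPS lungs for all 8 genes (12.2% of tested genes lay higher and 12.4% lower without overlap). Within PBS the count was 0 of 8 as well, where 0% of tested genes were called and 2.17% had an unadjusted p below 0.05. There the log2 difference ran from -0.15 for H2-Eb1 (-0.77 to 0.48) to 0.28 for Ciita (-0.21 to 0.78), with the lowest adjusted p at 0.999 (edgeR), and again the groups overlapped for all 8 genes (2.47% of tested genes lay higher and 2.51% lower without overlap). None of the 8 genes had an unadjusted p below 0.05 in LPS, where 14.3% of tested genes did, or in PBS.

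Ratios of the class II genes within a lung differed in spread. The ratio of H2-DMa to H2-Ab1 (CPM per kb) stayed between 0.177 and 0.229 in all 12 lungs, and that of H2-Eb1 to H2-Ab1 between 1.30 and 1.83. The spread was wider for H2-DMa to H2-DMb1 (0.471 to 0.856) and for Ciita to H2-Ab1 (0.0865 to 0.164). The ratio of Cd74 to H2-Ab1 was 10.1 to 11.3 in Adm+/- LPS and 7.73 to 9.82 in the other 9 lungs, without overlap, a comparison picked after its values were seen. The ratio of H2-Aa to H2-Ab1, the chains of I-A, was 0.625 to 0.953 in 10 lungs and lowest in WT PBS 5 (0.466) and Adm+/- PBS 6 (0.544), the libraries that stood apart. MARCH1 over H2-Ab1, its target chain, was 0.0216 to 0.0803 in the PBS lungs and 0.230 to 0.661 in the LPS lungs.

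**Figure D3:**
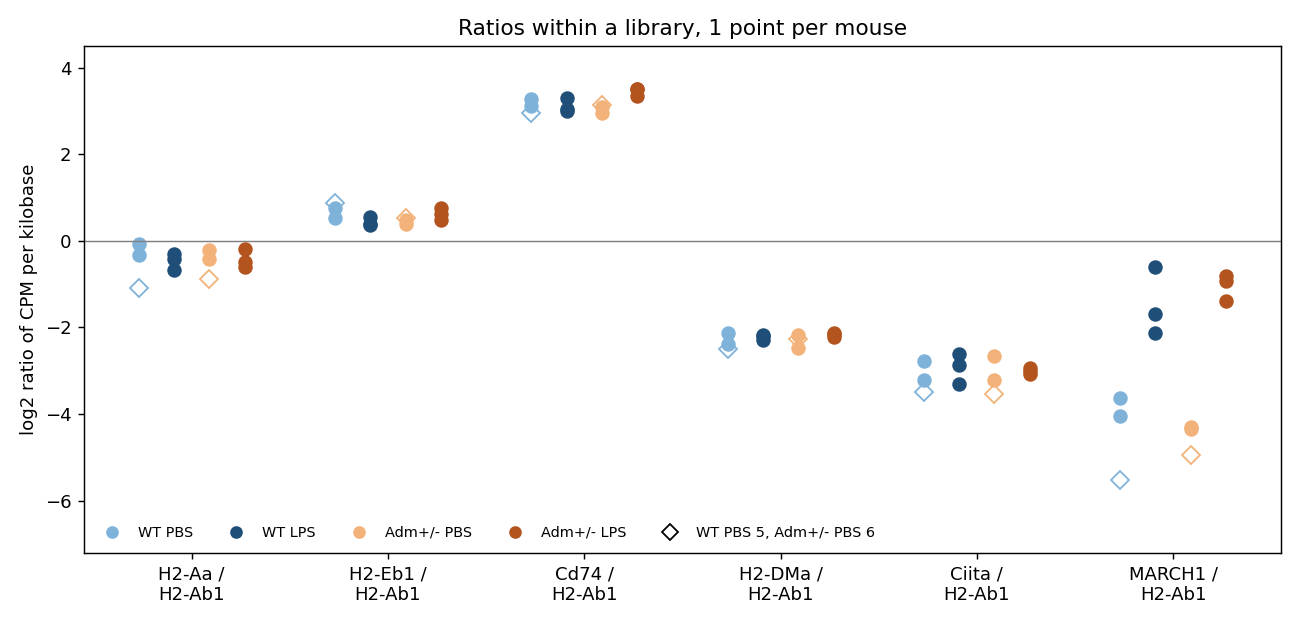
Log2 ratio of CPM per kilobase of a gene to H2-Ab1 within each lung (y axis), by group, 1 point per mouse, with WT PBS 5 and Adm+/- PBS 6 as open diamonds. H2-DMa and H2-Eb1 keep a narrow band, H2-Aa dips in both diamonds, and MARCH1 lies at -5.53 to -3.64 in PBS lungs and -2.12 to -0.60 in LPS lungs.

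Around the set, 55 further genes of the class II pathway were examined in 7 lists by role, of which 50 passed the filter. These lists too were chosen with earlier results of these data known. Their shares called after LPS are a description, and nothing is read from the gap to all tested genes. In WT 16 of 50 were called (16 higher, 0 lower, or 32%, where 17.6% of tested genes were called, 10.5% higher and 7.09% lower), and in Adm+/- 23 of 50 (20 higher, 3 lower, or 46%, where 25% were, 12.8% higher and 12.2% lower). The 3 that fell were H2-Ob, Nfya and Prdm1. The WT count was 9 without WT LPS 9 and 5 when only the WT libraries were fitted, fits in which calls over all tested genes were fewer too (9% and 7.39%), while the Adm+/- count stayed between 19 and 26 without any single library. For the difference in LPS response 0 of 50 were called, where 0.145% of tested genes were. Of the 50, 7 had an unadjusted p below 0.05 there (edgeR), where 7.85% of tested genes did. A call in 1 genotype alone is therefore not a called difference between the genotypes. Under LPS, 2 of 50 (4%), March3 and Cd83, were called between genotypes, where 2.05% of tested genes were.

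The remaining genes of the class II locus were low. H2-Ob, a chain of the H2-DO inhibitor of H2-DM that B cells carry, measured 3.54 to 6.18 CPM in WT PBS and 2.65 to 3.78 in WT LPS (log2 fold change -0.62, SE 0.22, adjusted p = 0.0631, edgeR). It fell in Adm+/-, from 4.37 to 4.68 CPM down to 2.13 to 2.43 CPM (-1.01, SE 0.22, adjusted p = 0.00551, edgeR). H2-Oa, the other DO chain, averaged under 1 CPM in every group, with log2 fold changes of -0.50 (SE 0.53) in WT and -0.17 (SE 0.52) in Adm+/-. H2-DMb2 had log2 fold changes of -0.22 (SE 0.22) and -0.06 (SE 0.22), without a call. H2-Eb2 had at most 12 counts in a library and was not tested.

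Of 7 enzymes and inhibitors that act on the invariant chain and antigens, 5 were called higher in WT (Ctss, Ctsh, Ctsb, Lgmn and Ctsd), 4 in Adm+/- (all but Ctsd), and 0 lower, while the class II chains were lower. Ctss (cathepsin S), which makes the last cuts in the invariant chain, rose from 70.9 CPM ± 7.78 to 144 ± 39.2 (SD, n = 3) in WT (log2 fold change 1.02, adjusted p = 0.00476, edgeR) and from 69.2 ± 12.99 to 105 ± 9.94 in Adm+/- (0.60, adjusted p = 0.0358, edgeR). The Adm+/- call was lost without Adm+/- PBS 6 or 8 or Adm+/- LPS 1, 2 or 12 (0.46 to 0.67). In WT the call of Ctsb was lost without WT PBS 3 (0.49), that of Ctsd without WT PBS 3 or WT LPS 9 or 11 (0.34 to 0.56), and that of Lgmn without any library except WT PBS 4 and 5 and Adm+/- PBS 6 and 8 (0.38 to 0.60). Ctsh, the enzyme with the largest called Adm+/- change, rose by 0.79 in WT and 0.98 in Adm+/- on the log2 scale.

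**Figure D4:**
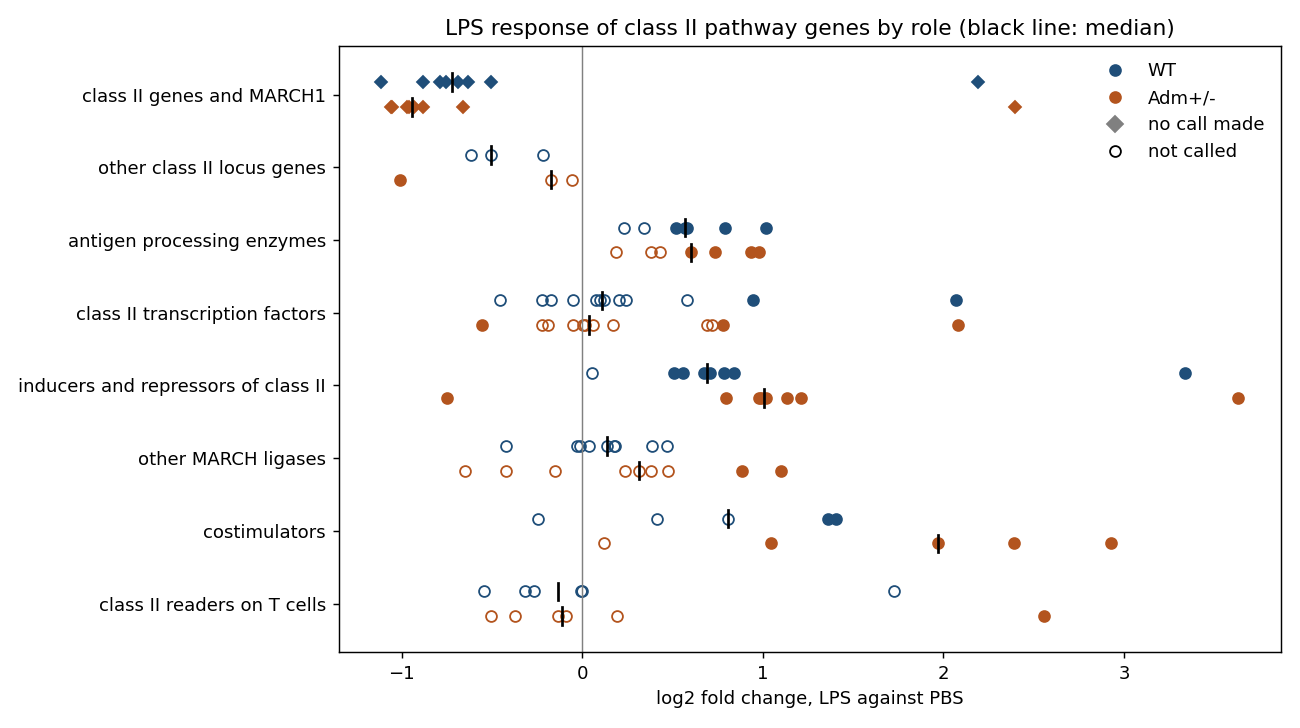
Log2 fold change for LPS against PBS (x axis) of the class II genes and MARCH1 (top) and of 7 lists of pathway genes by role, in WT and Adm+/-, with diamonds for the top row, where no call is made, filled circles for called genes, open circles for genes not called and a black line at each list's median. Processing enzymes, inducers and repressors and costimulators lie mostly right of 0, opposite to the class II genes, and the right-hand points of the top row are MARCH1.

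Among 12 transcription factors of the class II promoters, Spi1 and Irf4 were called higher in each genotype and Nfya lower in Adm+/-. Spi1 (PU.1), a factor of myeloid and B cells, rose from 16.9 CPM ± 2.67 to 70.8 ± 14.6 in WT and from 15.2 ± 2.26 to 64.3 ± 4.66 in Adm+/- (log2 fold change 2.07 and 2.08). Irf4, a factor of B cells and dendritic cells, had log2 fold changes of 0.95 and 0.78, with the WT call lost without WT PBS 4 or 5 or WT LPS 9 or 10 (0.77 to 0.93) and the Adm+/- call lost without WT PBS 4, WT LPS 10, Adm+/- PBS 6 or 8 or any Adm+/- LPS lung (0.55 to 0.84). Nfya, a subunit of the NF-Y complex on the Y box, fell by 0.55 on the log2 scale in Adm+/- (adjusted p = 0.00234, edgeR) and had a log2 fold change of -0.46 in WT, under the size limit of a call. The RFX subunits Rfx5, Rfxap and Rfxank, which bind the X box and hold Ciita, lay between -0.22 and 0.06 in both genotypes, without a call.

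Of 8 tested inducers and repressors, 7 were called higher in each genotype. When only the WT libraries were fitted, 6 of the 7 WT calls were lost, all but that of Ifngr1. The WT call of Jak1, a kinase of the interferon gamma receptor, was lost without WT PBS 3 or 5, WT LPS 9 or 10 or Adm+/- PBS 6 (0.38 to 0.50) and by limma-voom (0.49), and that of Il10rb, a chain of the interleukin-10 receptor, without WT PBS 5 or WT LPS 9 (0.43 and 0.39). Ifngr1, a chain of the interferon gamma receptor through which Ciita is induced, rose by 0.84 in WT and 1.02 in Adm+/- on the log2 scale, while Ifng itself had at most 5 counts in a library and was not tested. Il10, known to raise MARCH1 and to hold class II inside monocytes, averaged 0.326 CPM ± 0.180 in WT PBS and 3.47 ± 3.79 in WT LPS, and 0.262 ± 0.0589 in Adm+/- PBS and 3.26 ± 0.185 in Adm+/- LPS. With 2 to 12 counts in the PBS libraries, it was called higher in both genotypes (3.34 and 3.63 on the log2 scale), and its WT LPS lungs spread from 0.916 to 7.83 CPM. Without WT LPS 9 its WT log2 fold change was 1.89, still called. Prdm1 (Blimp-1), a repressor of Ciita, fell by 0.75 in Adm+/- (adjusted p = 0.00173, edgeR) and had a log2 fold change of 0.05 in WT, a difference that did not pass (adjusted p = 0.223, edgeR).

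Of 10 other ligases of the MARCH family, 9 were tested, of which 0 were called in WT and 2 in Adm+/- (March3 and March4, both higher). The call of March4 was lost without Adm+/- PBS 6 or 8 or any Adm+/- LPS lung (0.77 to 0.93). March8, the closest relative of MARCH1, had log2 fold changes of 0.04 in WT and 0.24 in Adm+/-, without a call. March3 measured 9.01, 11.8 and 9.76 CPM in WT PBS and 13.1, 11.6 and 9.88 CPM in WT LPS, with a log2 fold change of 0.18 (SE 0.17). In Adm+/- it rose from 12.2, 8.18 and 9.38 CPM to 20.8, 21.4 and 21.3 CPM (1.10, SE 0.17). Under LPS it was higher in Adm+/- than in WT by 0.87 on the log2 scale (adjusted p = 0.0242, edgeR), and the call was lost without WT LPS 11 (0.77, adjusted p = 0.103) or without Adm+/- LPS 1, 2 or 12 (0.89, 0.87 and 0.87, adjusted p up to 0.111). The difference between the LPS responses was not called.

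Of 5 costimulators that stand beside class II on antigen-presenting cells, Icosl and Cd80 were called higher in WT and all but Cd40 in Adm+/-, where the call of Cd86 was lost without Adm+/- PBS 6 (0.88) or Adm+/- LPS 2 (0.83). The WT call of Icosl was lost without WT LPS 9 (1.06, adjusted p = 0.0510, edgeR), and that of Cd80 without any library except WT PBS 4 and WT LPS 10 (0.89 to 1.43). Both WT calls were also lost when only the WT libraries were fitted (1.40 and 1.36, adjusted p = 0.0711 and 0.159, edgeR). Cd83, which on dendritic cells counters MARCH1 and keeps class II at the surface, measured 6.95, 6.41 and 5.07 CPM in WT PBS and 9.31, 10.1 and 5.18 CPM in WT LPS, a log2 fold change of 0.41 (SE 0.26) without a call. In Adm+/- it rose from 5.94, 6.93 and 7.24 CPM to 20.5, 34.8 and 23.7 CPM (1.97, SE 0.27). Under LPS it was higher in Adm+/- by 1.68 (adjusted p = 0.00830, edgeR), and it stayed called in all 19 alternative fits. There Cd83 lay higher without overlap, as did 12.2% of tested genes. The difference between its LPS responses did not pass. Of 6 tested genes through which T cells read or meet class II, 0 were called in WT and 1, Ctla4, higher in Adm+/- (2.56, adjusted p = 0.00992, edgeR, with 0 to 7 counts in the Adm+/- PBS libraries).

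Markers of cells that can carry class II are set beside these levels. The summed CPM of the 8 genes was 360 to 567 in WT PBS and 248 to 311 in WT LPS, and 446 to 520 in Adm+/- PBS and 278 to 380 in Adm+/- LPS. Dendritic cell markers summed to 287 to 343 CPM in WT PBS and 273 to 295 in WT LPS, and to 273 to 321 in Adm+/- PBS and 309 to 327 in Adm+/- LPS. Of 11 tested, Ly75 was called higher and Mgl2 lower in both genotypes, and in Adm+/- Batf3 higher and Clec10a lower. Mgl2 and Clec10a, lectins of the same family on dendritic cells and macrophages, had log2 fold changes of -3.63 and -0.996 in WT and -2.76 and -2.003 in Adm+/-, with -4.44 for Mgl2 in WT without WT LPS 10 and -3.63 in Adm+/- without Adm+/- LPS 2. These values rest on few reads, with 2 to 9 counts of Mgl2 in the WT LPS libraries and 3 to 13 in Adm+/- LPS, and 8 to 23 and 3 to 9 of Clec10a. The most abundant markers, Fscn1, Clec9a and Zbtb46, were not called. They averaged 163, 43.2 and 49.7 CPM in WT PBS and so made up most of the sum. The median log2 fold change of the 11 tested markers was -0.45 in WT and -0.09 in Adm+/-. The number of dendritic cells was not measured. The Adm+/- calls of Clec10a and Batf3 were each lost without single libraries, that of Clec10a without any Adm+/- PBS lung or Adm+/- LPS 1 or 12 (-2.10 to -1.66) and that of Batf3 without Adm+/- PBS 7 or 8 or Adm+/- LPS 2 or 12 (1.31 to 1.56). B cell markers summed to 40.96 to 70.8 CPM in WT PBS and 55.6 to 73.8 in WT LPS, and to 43.4 to 58.9 and 48.9 to 55.9 in Adm+/-. Of 9 tested, 0 were called in WT and Fcer2a higher in Adm+/-. Type II pneumocyte markers summed to 13279 to 17186 CPM over all lungs, with 1 of 9 called higher in WT and 3 higher and 1 lower in Adm+/- (the WT call, Sftpd, was lost without WT PBS 3 or 4 or WT LPS 9, at 0.62 to 0.68, and the Adm+/- call of Sftpa1 without Adm+/- PBS 7 or 8 or Adm+/- LPS 1 or 12, at 0.59 to 0.67), and endothelial markers to 2883 to 3225 CPM in WT PBS, 2564 to 2657 in WT LPS without overlap, and 2835 to 3172 in Adm+/-, with 1 of 8 called lower in WT and 2 in Adm+/-. When only the WT libraries were fitted, the WT calls of Sftpd (0.75) and of the endothelial marker Kdr (-0.79) were lost, each at adjusted p = 0.0555 (edgeR). Between genotypes under LPS, the B cell marker Fcer2a (1.32, adjusted p = 0.0274, edgeR) and the endothelial marker Aplnr (0.92, adjusted p = 0.0109, edgeR) were called higher in Adm+/-. Both calls were lost without Adm+/- LPS 1 or 2 (1.16 and 1.42 for Fcer2a, 0.92 and 0.84 for Aplnr), and that of Fcer2a also without Adm+/- PBS 8, Adm+/- LPS 12 or WT LPS 10 or 11 (1.09 to 1.37). The part of each cell type in the class II levels was not tested.

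Most myeloid markers were called higher after LPS in the fit of all 12 libraries. Macrophage and monocyte markers summed to 323 to 376 CPM in WT PBS and 617 to 978 in WT LPS, and to 293 to 321 and 563 to 680 in Adm+/-, with 12 of 15 called higher in WT and 10 of 15 in Adm+/-, among them C1qb, Chil3 and Marco, and 1, Cx3cr1, lower in Adm+/- (-2.15), a call lost without any 1 of the 6 Adm+/- libraries (-2.25 to -2.10). Single libraries also decided calls among those higher: in WT that of Mertk was lost without any library except WT PBS 4 (0.47 to 0.77), that of Fcgr1 without WT PBS 3 or 5 or WT LPS 9 or 11 (0.84 to 0.92), and that of Csf1r without WT PBS 3 or 4 or WT LPS 9 or 11 (0.5036 to 0.65). In Adm+/- that of Fcgr1 was lost without Adm+/- PBS 6 or 8 or Adm+/- LPS 1 or 2 (0.72 to 0.84), that of C1qa without Adm+/- PBS 8 or Adm+/- LPS 1 or 12 (1.06 to 1.18), that of Cd68 without Adm+/- PBS 6 or Adm+/- LPS 1 (0.77 and 0.87), and that of C1qc without Adm+/- PBS 8 (1.31). Neutrophil markers, led by S100a9, S100a8 and Retnlg, summed to 25.7 to 119 CPM in WT PBS and 1027 to 1838 in WT LPS, and to 25.3 to 40.5 and 1057 to 1289 in Adm+/-, with 6 of 7 tested called higher in WT and 7 of 7 in Adm+/-. Of these, the WT call of Mpo was lost without WT PBS 3 or 5 or WT LPS 10 (2.43 to 2.83) and the Adm+/- call of Ly6g without Adm+/- PBS 7 or 8 or Adm+/- LPS 2 (2.92 to 3.40). When only the WT libraries were fitted, the WT calls of Mertk, Fcgr1, Csf1r, C1qa and C1qc were lost (0.68 to 1.77). Those of the neutrophil markers Cxcr2, Mpo and Retnlg were lost there too (2.54 to 3.52). Calls over all tested genes were also fewer in that fit (7.39%). Ly6g was at 0 in 2 libraries, as was Elane, and Mpo in 1. Their part in the MARCH1 level was not tested.

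**Figure D5:**
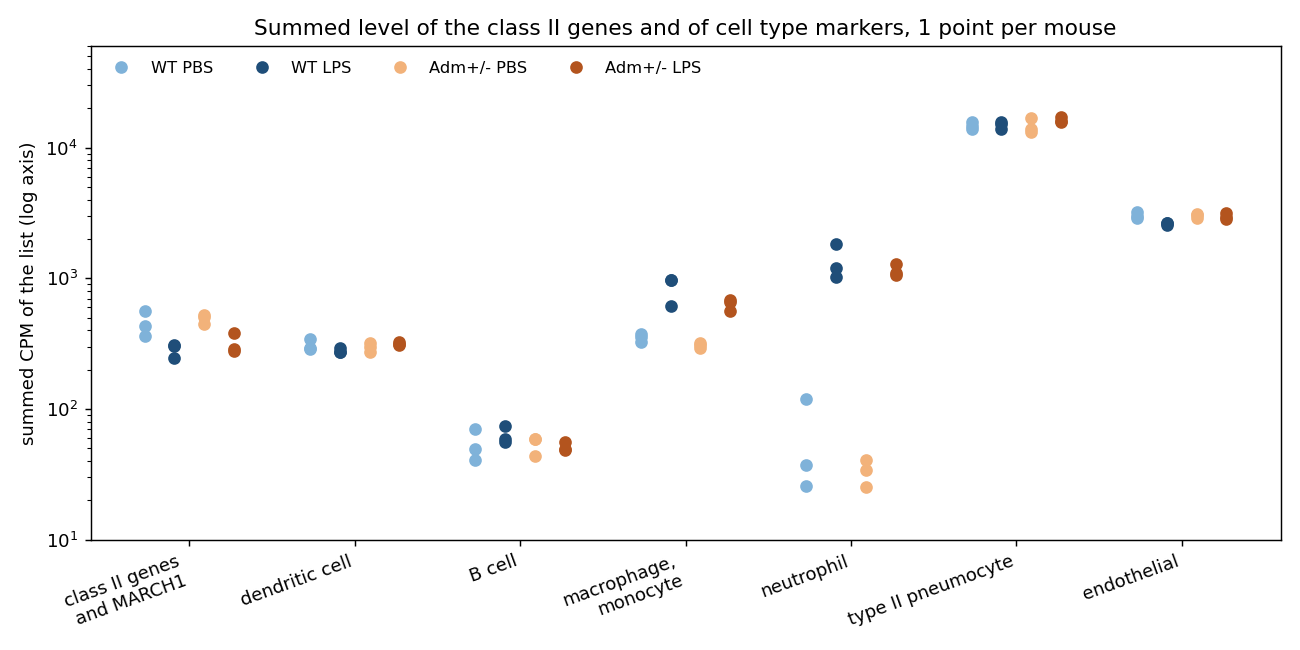
Summed CPM (y axis, log scale) of the 8 genes and of 6 lists of cell type markers in each lung, by group, 1 point per mouse. In both genotypes the 8 genes lie lower in LPS than in PBS, and macrophage, monocyte and neutrophil markers lie higher in LPS. The sums of B cell markers and of dendritic cell markers, the latter mostly Fscn1, Clec9a and Zbtb46, overlap between PBS and LPS.

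Over the 12 libraries, the profile of a gene was compared with others by the root mean square (RMS) difference of log2 CPM after centring each gene on its mean, among 14593 genes. To the mean profile of H2-Aa, H2-Ab1, H2-Eb1 and Cd74, the nearest genes outside the set were Ctxn1 (RMS difference 0.126), Thbs3 (0.146), Tril (0.149), Gstt1 (0.151) and Spats2l (0.151), against a median of 0.535 over all genes. On the same measure, which includes them in the mean, H2-Ab1 lay at 0.105, Cd74 at 0.123, H2-Eb1 at 0.155 and H2-Aa at 0.216. H2-DMa lay at 0.150, while H2-DMb1 (0.245) and Ciita (0.280) lay farther off than the 5 outside genes, and MARCH1 lay at 1.66. To MARCH1 the nearest were Fth1 (0.191), Lcp2 (0.194), Fcgr3 (0.200), Sla (0.214) and Rac2 (0.215), against a median of 1.22. These distances describe 12 libraries that share 4 groups and carry no test.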

How the data were processed

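Per the labels and the study's methods, the authors extracted RNA from whole lung, depleted ribosomal RNA, prepared directional libraries, trimmed reads with Trim Galore, aligned them to mm10 with HISAT2 and counted them with featureCounts on Gencode genes. The deposited values are raw counts per gene (52550 genes, 12 libraries). The Gencode release is not given in the sources used here. The 8 genes and all lists were chosen with earlier results of these data known. The 5 contrasts were fitted in 1 model over the 12 libraries (edgeR 4.0.16, TMM, filterByExpr, quasi-likelihood test, 8 residual degrees of freedom before moderation) on protein-coding genes, and SEs and 95% intervals come from it. CPM and log2 fold changes were computed from the deposited counts, and levels per kilobase used exon lengths of Gencode M21. The fit was tested on simulated data. Alternatives were size factors by relative log expression, limma-voom (limma 3.58.1), DESeq2 1.42.0, no filter, all genes, only the groups compared, each library left out, and both libraries that stood apart left out. Named genes beyond the 8 were those of the class II locus, the 3 most abundant per kilobase in each list, list genes called between genotypes, the largest call of each pathway list per genotype, and the 5 nearest profiles. H2-Ea-ps, Ctsb, Rfx5, Rfxap, Rfxank, Nfya, Irf4, Ifng, Prdm1, March4, March8, Mgl2, Clec10a, Ly75, Batf3, Cx3cr1, Il10rb, Cd86, Mertk, Fcgr1, Csf1r, C1qa, C1qc, Cd68, Cxcr2, Mpo, Ly6g, Elane, Sftpd, Kdr and the overlapping genes were named after their values were seen. Ifi30 and Trac are not listed as protein-coding and were outside the main fit.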

Additional observations from a re-analysis of the deposited data

How the results depend on the processing

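No paired analysis was possible because the groups share no replicate number. The number of pathway genes called after LPS in WT was 16, with 5 when only the WT libraries were fitted and 9 to 16 when each library was left out in turn, lowest without WT LPS 9. Over all tested genes 17.6% were called, 7.39% when only the WT libraries were fitted and 9% without WT LPS 9. In Adm+/- it was 23, and 19 to 26 without a library. The number of the 8 genes called between genotypes or for the difference in response was 0 in every fit. Signs that turned were of uncalled differences. Without both PBS libraries that stood apart, the difference in response was -0.0885 for H2-Eb1 and -0.0157 for Cd74, and Adm+/- against WT in PBS was 0.18 for H2-Eb1 and -0.0507 for MARCH1. Without 1 library each, the difference in response ranged from -0.16 to 0.50 for H2-Eb1 and -0.11 to 0.23 for Cd74. Adm+/- against WT in LPS ranged from -0.35 to 0.10 for H2-Aa, -0.249 to 0.0148 for H2-Ab1, -0.14 to 0.21 for H2-Eb1, -0.166 to 0.0871 for H2-DMa and -0.231 to 0.0459 for H2-DMb1. Adm+/- against WT in PBS ranged from -0.0471 to 0.46 for H2-Ab1, -0.41 to 0.26 for H2-Eb1, -0.0085 to 0.34 for Cd74, -0.0409 to 0.43 for Ciita and -0.19 to 0.18 for MARCH1. The cause of these shifts was not tested. Over all genes, calls for the difference in response numbered 23, with 1 by limma-voom and 168 by DESeq2. Groups of 3 limit the precision: the intervals of the differences span over 1 log2 unit.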

Other observations

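Ifi30, the lysosomal thiol reductase of class II processing, and Trac, the T cell receptor alpha constant gene, are not listed as protein-coding in the annotation and were fitted among all annotated genes. There Ifi30 rose in both genotypes, by 0.53 on the log2 scale in WT (SE 0.15, adjusted p = 0.0380, edgeR) and 0.59 in Adm+/- (SE 0.15, adjusted p = 0.0151, edgeR), as most of the other processing enzymes did in the report. Trac averaged 2.32 CPM ± 0.425 (SD, n = 3) in WT PBS and 0.965 ± 0.497 in WT LPS, and fell by 1.31 in WT (SE 0.35, adjusted p = 0.0288, edgeR). In Adm+/- it averaged 1.83 ± 0.449 in PBS and 1.64 ± 0.478 in LPS, without a call (-0.19, SE 0.34). The difference between the genotypes was not tested for Trac.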
